A study of Arabidopsis thaliana with 3 samples.

Results

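ACD6 (AT4G14400) and 6 other Arabidopsis genes for ankyrin-repeat membrane proteins are described here, 7 genes of the 24658 that were measured. The 7 are ACD6, its neighbour AT4G14390, BDA1 (AT5G54610, listed under the symbol ANK), AT1G10340, AT4G03450, AT4G03500 and AT4G05040. They were picked by locus code, with the mean ratios of this same comparison in view: AT4G14390 was taken as the strongly raised neighbour of ACD6. Their ratios are therefore a description and carry no test.

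The tested plants were the lsm1a lsm1b double mutant, and the plants they were set against were Col-0, the wild-type accession. Rosette RNA of both genotypes was hybridised together on each of 3 two-colour arrays, labelled as biological replicates, with the mutant in Cy3 on arrays 1 and 3 and in Cy5 on array 2. LSM1A and LSM1B encode the LSM1 subunit of a cytoplasmic ring that promotes decapping and decay of messenger RNA, and the question is how transcript levels change in its absence. The labels name no alleles. For all 3 samples they give growth at 22 °C, with 16 h of light and 8 h of dark. They give an age of 2 weeks in one field and of 3 weeks with 1 day at 4 °C in another, the same for both genotypes, so the temperature before harvest cannot be told from them. A value is a log2 ratio within an array, and a value of 1 means a 2-fold difference. Each ratio is read as lsm1a lsm1b over Col-0. That direction is likely but not certain, because the labels put the mutant in channel 1 of every sample and give no sign convention. The sample titles name Col-0 first ("Col-0 vs lsm1a lsm1b") and do not settle the direction. If it runs the other way, every "higher" and "lower" below turns round.

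Ankyrin-repeat membrane proteins carry a row of ankyrin repeats, which bind other proteins, followed by membrane-spanning helices. ACD6 is the best known of them in Arabidopsis: it promotes salicylic acid defence, hyperactive forms of it give small plants with spontaneous cell death, and salicylic acid in turn raises the expression of ACD6. BDA1 acts downstream of the receptor-like protein SNC2 and likewise promotes immunity. For the other 5 genes no role is given here.

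For 5 of the 7 genes the mean log2 ratio was 0.81 or more, that is, a higher transcript level in lsm1a lsm1b than in Col-0, and the other two, AT4G03500 and AT4G05040, averaged close to equal. All but AT4G05040 had ratios above 0 on every array (6 of 7). Over all genes 19.7% did so, and since the genes were picked on these ratios nothing is read from the excess. In limma's moderated test over all genes, an adjusted p under 0.05 marked 1 of the 7 as higher, AT4G14390, and 0.625% of all genes. AT4G14390 was picked for its ratio, so this count is given for completeness and is no support. The median of the 7 mean ratios was 0.90, against 0.01 over all genes, and 3 of the 7 had a mean of at least 1, as did 1.43% of all genes.

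AT4G14390 stood at 2.98, 4.16 and 2.78 on arrays 1, 2 and 3. All 3 values were far above 0, and even the lowest corresponded to a 6.87-fold higher level in the mutant. Its mean of 3.31 ± 0.75 (SD, n = 3 arrays) is a 9.89-fold difference and ranked 6 among the 24658 genes. The mean was 3.32 with the arrays scaled to one spread, 3.52 with a dye term and between 2.88 and 3.57 with 1 array left out. With 3 arrays, a dye term or a left-out array cannot move a mean by 1 SD, so nothing is read from this closeness. In none of these settings was limma's threshold met. With a dye term or with 1 array left out, no gene of the 24658 met it. This gene was measured by 1 probe, so no second probe stands behind the value.

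ACD6 itself stood at 0.91, 1.28 and 0.50 on the 3 arrays when its 2 probes were averaged. The values were all above 0 and corresponded to differences between 1.41-fold and 2.43-fold. The mean was 0.90 ± 0.39 (n = 3), a 1.86-fold difference, and ranked 453. Both probes were assigned to the same RefSeq transcript, yet they gave different sizes. One read 1.16, 2.03 and 0.71, a mean of 1.30 ± 0.67. The other read 0.66, 0.53 and 0.29, a mean of 0.49 ± 0.19. The probes lay within 0.50 of each other on arrays 1 and 3 and 1.50 apart on array 2, so the higher average on array 2 came from 1 of the 2 probes. ACD6 and AT4G14390 are adjacent and related genes. The probe sequences were not analysed here, so signal shared between them was not tested.

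BDA1 stood at 1.20, 1.82 and 1.02, all at least 2-fold higher in the mutant. Its mean was 1.35 ± 0.42 (n = 3; 2.54-fold), from 1 probe, and ranked 158. After AT4G14390 it was the highest of the 7 and the only other one whose 3 values all exceeded 1. The receptor-like protein gene RLP12 (AT1G71400), listed here under the name SNC2, stood at 0.15, -0.17 and -0.19. Its mean was -0.07 ± 0.19, with values on both sides of 0. The gene annotation names this locus RLP12 and not SNC2, so its ratio is not read as that of SNC2.

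AT1G10340 stood at 0.39, 1.65 and 1.17. Its mean was 1.07 ± 0.64 (n = 3; 2.10-fold) and ranked 301, with the lowest value on array 1. AT4G03450 stood at 0.02, 1.87 and 0.54. The mutant and Col-0 were thus equal on array 1 and 3.66-fold apart on array 2, and the mean of 0.81 ± 0.95 (1.75-fold, ranked 573) is smaller than its spread. Without array 2 the mean of AT4G03450 was 0.28. Each of these 2 genes had 1 probe.

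AT4G03500 stood at 0.05, 0.32 and 0.04, a mean of 0.14 ± 0.16 (n = 3; 1.10-fold). Its 3 probes had means of 0.22, 0.17 and 0.03. The first of them, designed on a cDNA or older sequence and not on a current RefSeq transcript, read -0.05, 0.75 and -0.04. The single value of 0.75 on array 2 accounts for the gene's higher average there, since the other probes read 0.23 and -0.01 on that array. AT4G03500 was the nearest to equal between the genotypes among the genes whose probes agreed.

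AT4G05040 is the gene whose average hides the data. Its average of 0.04 ± 0.22 (n = 3) came from 4 probes that pointed in opposite directions. One probe read 1.86, 2.43 and 1.45, a mean of 1.91 ± 0.49, or 3.77-fold higher in the mutant. The other 3 probes had means of -0.33, -0.63 and -0.81, and together they averaged -0.89, -0.70 and -0.18 on the 3 arrays. Their joint mean of -0.59 ± 0.37 corresponds to a level 1.50-fold lower in the mutant. The highest and the lowest probe, 2.72 apart, were assigned to the same RefSeq transcript, and the gene table lists several transcripts for this gene. The spread was there on each array, at 3.22, 3.17 and 1.78. Among the 7306 genes measured by several probes, the probe means spanned over 1 in 178 (2.44%) and at least as much as in AT4G05040 in 23, and 27 (0.37%) had 1 probe mean above 0.5 with another below -0.5. Which part of the transcript each probe reads was not analysed here.

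**Figure D1:**
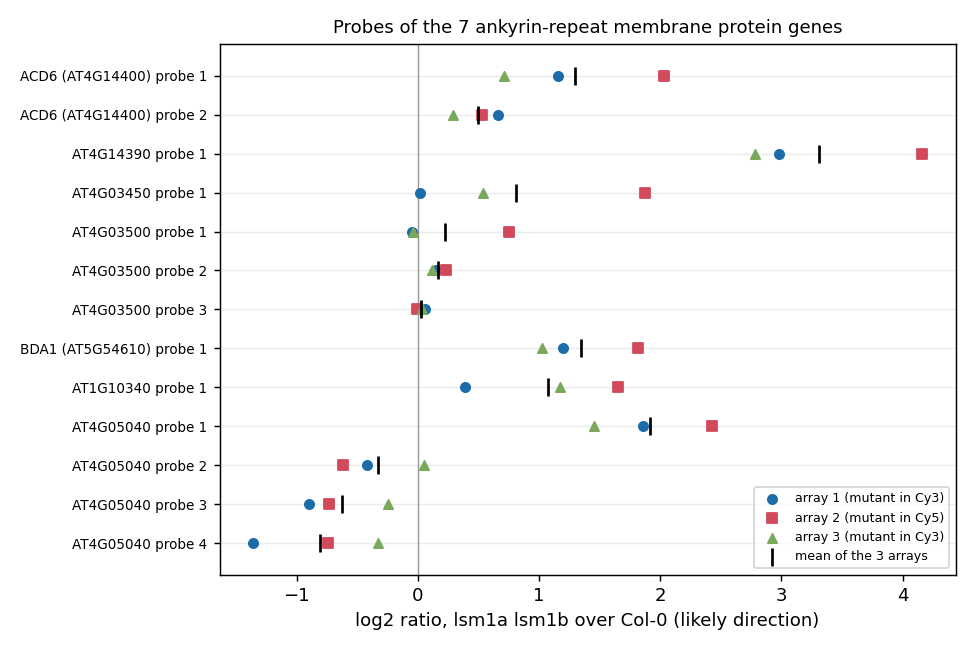
Log2 ratio of lsm1a lsm1b over Col-0 (x axis) for the 13 probes of the 7 genes (rows), with 1 point per array and a bar at the mean of the 3 arrays. AT4G14390 lies farthest to the right, at 2.78 to 4.16, and the 4 probes of AT4G05040 fall on both sides of 0, with means from -0.81 to 1.91.

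Ordered by mean, the genes ran AT4G14390, BDA1, AT1G10340, ACD6, AT4G03450, AT4G03500 and AT4G05040. The ranges over arrays were apart between AT4G14390 and BDA1, which differed by 1.78, 2.34 and 1.76 on the 3 arrays. Every other pair of neighbours in this order overlapped, and none kept the same order on all 3 arrays. Among BDA1, AT1G10340, ACD6 and AT4G03450 the ranges overlapped in all 6 pairs. One of these pairs kept its order on every array: BDA1 lay above ACD6 by 0.29, 0.54 and 0.52. That order holds for the average of the 2 ACD6 probes. By its higher probe alone, ACD6 lay above BDA1 on array 2, at 2.03 against 1.82. These are differences between log2 ratios. The arrays give no levels, so which transcript was the most abundant is not known.

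The dye-swapped array 2 gave the highest value for 6 of the 7 genes, the exception being AT4G05040, whose highest was on array 3. Array 2 was the highest for 41.6% of all genes, and for 44.6% of the 588 genes with a mean of at least 0.8. It exceeded the mean of arrays 1 and 3 by 1.59 for AT4G03450, 1.28 for AT4G14390, 0.87 for AT1G10340, 0.71 for BDA1, 0.58 for ACD6, 0.28 for AT4G03500 and 0.07 for AT4G05040. The mean of arrays 1 and 3 stayed at 2.88 for AT4G14390, 1.11 for BDA1, 0.78 for AT1G10340 and 0.71 for ACD6. Array 2 differs from the others both in dye orientation and in plants, and with 1 such array these cannot be told apart.

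Over all genes, arrays 1 and 3 correlated at r = 0.745, and array 2 with them at r = 0.428 and 0.452. Spearman's rho was 0.696 for arrays 1 and 3 and only 0.157 and 0.226 for array 2 with them, a description over genes that share the arrays. The median SD between arrays was 0.19 per gene. Of the 24658 genes, 298 passed limma's test at an adjusted p under 0.05, 154 higher and 144 lower in the mutant (1.21%). Ratios hold no level, so the rosette label could not be checked. The 12 root, flower and seed markers examined had mean ratios from -0.13 to 0.30, 0 of them passed in limma and 0 had an unadjusted p under 0.05. Array 2 was the highest for these too in 5 of 5 flower markers and 3 of 3 root markers, against 1 of 4 seed markers. The flower markers had medians of 0.08, 0.46 and 0.03 on arrays 1, 2 and 3, and their part in the higher values of the 7 genes on array 2 was not tested.

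The family beyond the 7 genes was described with 37 further ankyrin-repeat genes, of 38 listed. AT4G03490 was not analysed here. Their median mean ratio was 0.02, against 0.01 over all genes. Of the 37, 34 lay within 0.5 of 0, a share similar to that over all genes (21806 of 24658). In limma, 0 of 37 passed at an adjusted p under 0.05, while 1.21% of all genes did, and 5 had an unadjusted p under 0.05, 4 higher and 1 lower (13.5%, against 20.1% of all genes). Since the 7 were drawn from the family with the ratios known, the contrast between them and the rest is partly made by that choice and was not tested.

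AT3G13950 came closest to the 7 genes, at 1.07, 3.73 and 1.76 on the 3 arrays. All of its values exceeded 1, again with the highest on array 2, and its mean of 2.19 ± 1.38 (n = 3) did not pass in limma (adjusted p = 0.129). By mean it would stand between AT4G14390 and BDA1. AT5G15500 stood at 1.49, -0.02 and 0.59, with equality on array 2, where most of the 7 genes had their highest value. The next genes were much closer to 0, with means of 0.39 for ANK1 (AT5G02620), 0.36 for AT5G54710 and 0.35 for AT1G05640. AT1G14480 (-0.13, 0.62 and 0.41) and AT2G01680 (0.58, -0.295 and 0.615) had means of 0.30 each, from values of both signs.

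At the low end, AT2G24600 stood at -2.30, -2.19 and 0.53. Arrays 1 and 2 put it more than 4-fold lower in the mutant and array 3 put it higher, and its mean of -1.32 ± 1.60 did not pass in limma (adjusted p = 0.347). AT3G01750 was below 0 on all arrays at -0.33, -0.47 and -0.31, with a mean of -0.37 (limma adjusted p = 0.12). AT3G04140 and AT5G51160 had means of -0.28 and -0.18.

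**Figure D2:**
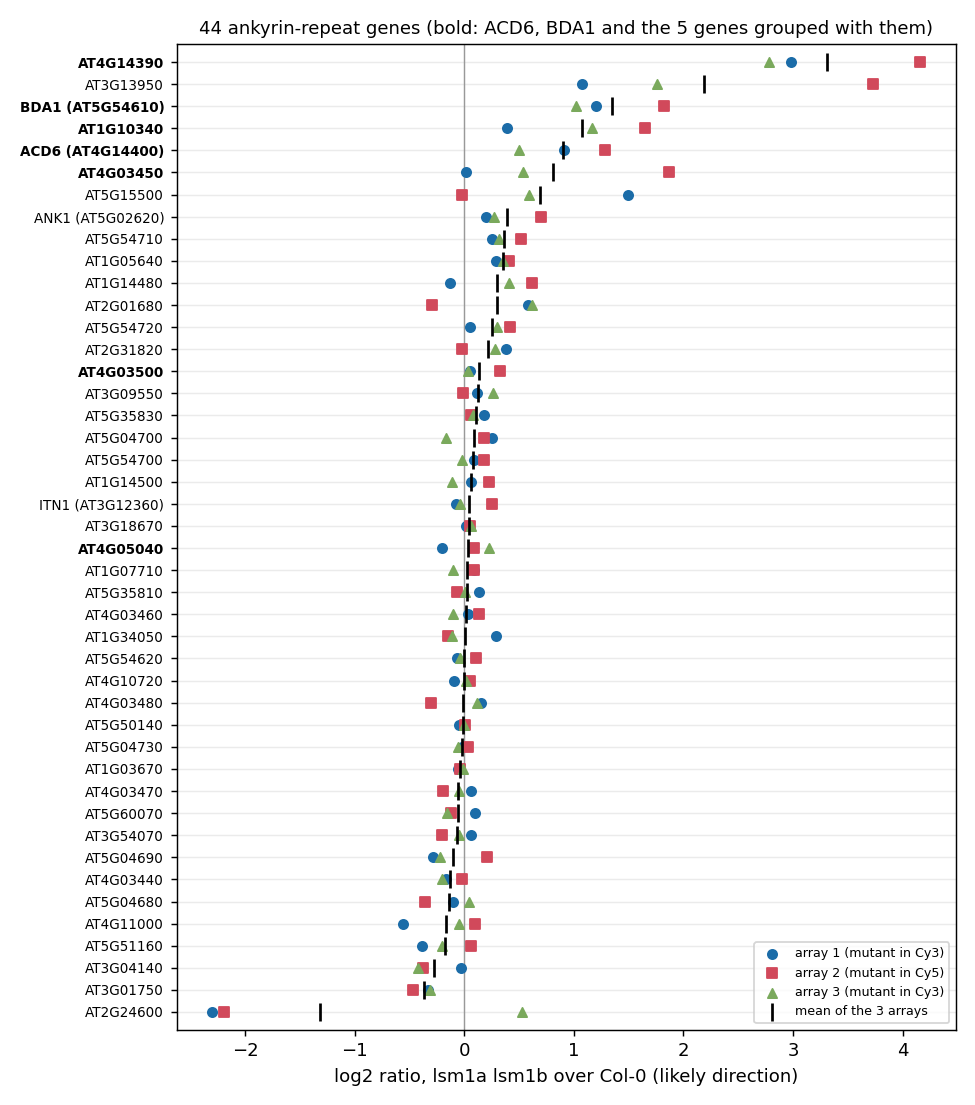
Log2 ratio of lsm1a lsm1b over Col-0 (x axis) for 44 ankyrin-repeat genes (rows, ordered by mean), with 1 point per array and a bar at the mean. Of the 6 highest genes, 5 are among the 7 described here (bold) and the other one is AT3G13950. Means within 0.5 of 0 are found for 34 of the 37 further genes, and for 21806 of all 24658 genes.

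Apart from AT4G14390 and ACD6, which are adjacent, no gene of the 7 with a mean of 0.81 or more had a direct neighbour with a mean above 0.5. The array annotation names no genome build, so positions are given only as gene order in the RefSeq table of TAIR10.1, counted over measured genes. In a locus code, the digit after AT is the chromosome.

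On chromosome 4, AT4G14390 is followed directly by ACD6. On its other side AT4G14385 stood at 0.89, -0.43 and 0.73, of both signs, and the gene after ACD6, bHLH104, had a mean of -0.07 ± 0.21. Within 5 places of AT4G14390 the 9 genes other than ACD6 had a median of 0.13. One of them, XBAT34 (AT4G14365), at the fifth place, passed in limma; it was singled out after its values were seen. XBAT34, a ubiquitin ligase gene whose protein also carries ankyrin repeats but belongs to another family, stood at 1.54, 2.55 and 2.10, a mean of 2.06 ± 0.51 (n = 3; 4.18-fold; limma adjusted p = 0.0455). Scaling the arrays to one spread ends that call (adjusted p = 0.0631), and its adjusted p ran from 0.0456 to 0.295 over the alternatives. The 3 genes between XBAT34 and AT4G14385 had means from 0.003 to 0.13.

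Elsewhere on the same chromosome, AT4G03450 and AT4G03500 belong to a run of 6 measured ankyrin-repeat genes. AT4G03450 was the only gene of the run with a mean above 0.5. AT4G03440, directly before it, had a mean of -0.13 ± 0.09 and AT4G03460, directly after it, of 0.02 ± 0.12. AT4G03470 and AT4G03480 had means of -0.06 and -0.01. On array 2, where AT4G03450 stood at 1.87, the other 5 genes of the run ran from -0.30 to 0.32. The gene after AT4G03500, AT4G03505, had a mean of -0.01 ± 0.04.

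BDA1 is followed directly by another ankyrin-repeat gene, AT5G54620, which stood at -0.07, 0.11 and -0.04. The pair thus differed by more than 1 on every array. AT5G54585, before BDA1, stood at 0.20, -0.56 and -1.28. The neighbours of AT1G10340 were near 0, with means of -0.06 ± 0.37 for AT1G10330 and -0.09 ± 0.41 for AT1G10350. Those of AT4G05040 were AT4G05030 at 0.06 ± 0.09 and the polyubiquitin gene UBQ11 at 0.04 ± 0.51. Within 5 places, the 10 genes around BDA1 had means from -0.55 to 0.17, those around AT1G10340 from -0.61 to 0.27 and those around AT4G05040 from -0.60 to 0.68. None of these 30 genes passed in limma.

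**Figure D3:**
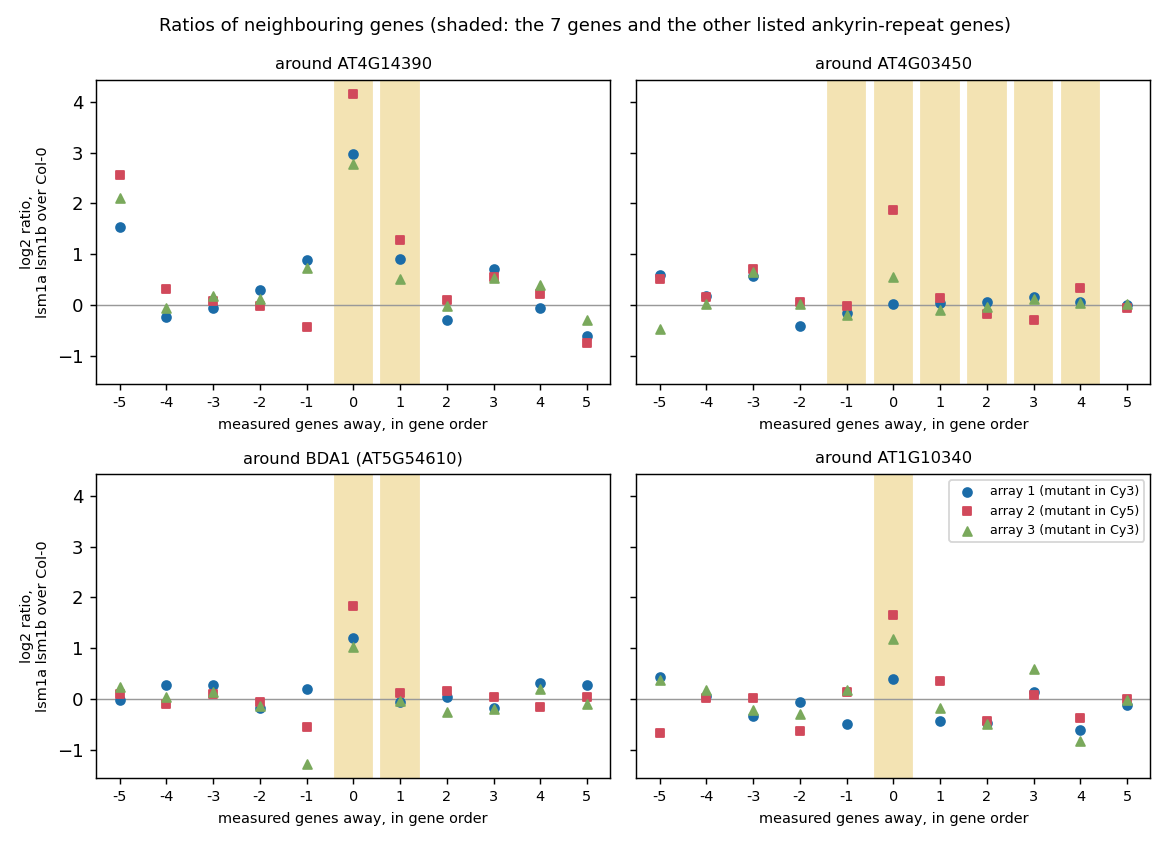
Log2 ratio of lsm1a lsm1b over Col-0 (y axis) for measured genes up to 5 places on either side (x axis, in gene order) of AT4G14390, AT4G03450, BDA1 and AT1G10340, with 1 point per array. Columns of the 7 genes and of the listed ankyrin-repeat genes are shaded, and XBAT34, which is not on the list, stands unshaded at -5 beside AT4G14390. ACD6 stands at 0.50 to 1.28 beside AT4G14390, while AT4G03460 and AT5G54620 stay near 0 beside AT4G03450 and BDA1.

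ACD6 and BDA1 act in salicylic acid defence, so 24 defence genes, of 25 listed, were set beside them. Most are genes of that signalling. The list also holds FLS2, EFR, BAK1 and CERK1, genes for surface immune receptors and co-receptors, and RLP12 (AT1G71400) under the name SNC2. These are counted in the values for the 24. SARD1 was not analysed here. The median mean ratio of the 24 was 0.78, against 0.01 over all genes, with medians of 0.47, 1.01 and 0.63 on arrays 1, 2 and 3. One of the 24, ICS1, passed in limma as a higher gene, as did 0.625% of all genes, and 0 passed as a lower one, against 0.584%. At an unadjusted p under 0.05 there were 16 higher and 1 lower (70.8%, against 20.1% of all genes). The list was chosen with earlier results of these data known, so nothing is read from its median or from this share. Array 2 was the highest for 19 of the 24, as it was for 6 of the 7 ankyrin-repeat genes.

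ICS1, the gene for the main enzyme of induced salicylic acid synthesis, stood at 0.80, 1.12 and 0.99 (mean 0.97 ± 0.16, n = 3; limma adjusted p = 0.0465). Its mean was thus close to that of ACD6 (0.90), with less spread. Scaling the arrays ends this call too (adjusted p = 0.062), and its adjusted p ran from 0.0463 to 0.295 over the alternatives. PBS3, the gene for the next enzyme of the route, stood at 1.00, 2.32 and 1.52. EDS5, the gene for the transporter that exports the precursor from the chloroplast, stood at 0.47, 1.76 and 1.10. Both had a higher mean than ACD6, at 1.61 and 1.11, and neither passed in limma (adjusted p = 0.0769 and 0.121). The mean of ACD6 here is that of its 2 probes. By the probe with a mean of 1.30, ACD6 would lie above EDS5 and ICS1, and by the other, at 0.49, below both.

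ALD1 and FMO1, which make the immune signal N-hydroxypipecolic acid, stood at 1.23, 2.88 and 1.64 and at 1.03, 2.64 and 1.69. WRKY70, a transcription factor gene of the pathway, stood at 0.59, 1.98 and 0.91. PR1, a classical output gene of the pathway, stood at 1.75, 5.71 and 2.11, a gap between array 2 and the others that was wider than that of any of the 7 ankyrin-repeat genes. None of these 4 passed in limma. PR2, another output gene, stood at -0.18, 0.22 and -0.15, near 0 throughout. NPR4, a salicylic acid receptor gene, stood at -0.31, 0.14 and -0.48, and CBP60G, a transcription factor gene that activates ICS1, at -0.48, 1.42 and 0.13. FLS2, the flagellin receptor gene, was the only gene of the list below 0 on all arrays, at -0.71, -0.48 and -0.48. FLS2, RLP12, PR2, NPR4 and CBP60G were chosen after their values were seen.

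**Figure D4:**
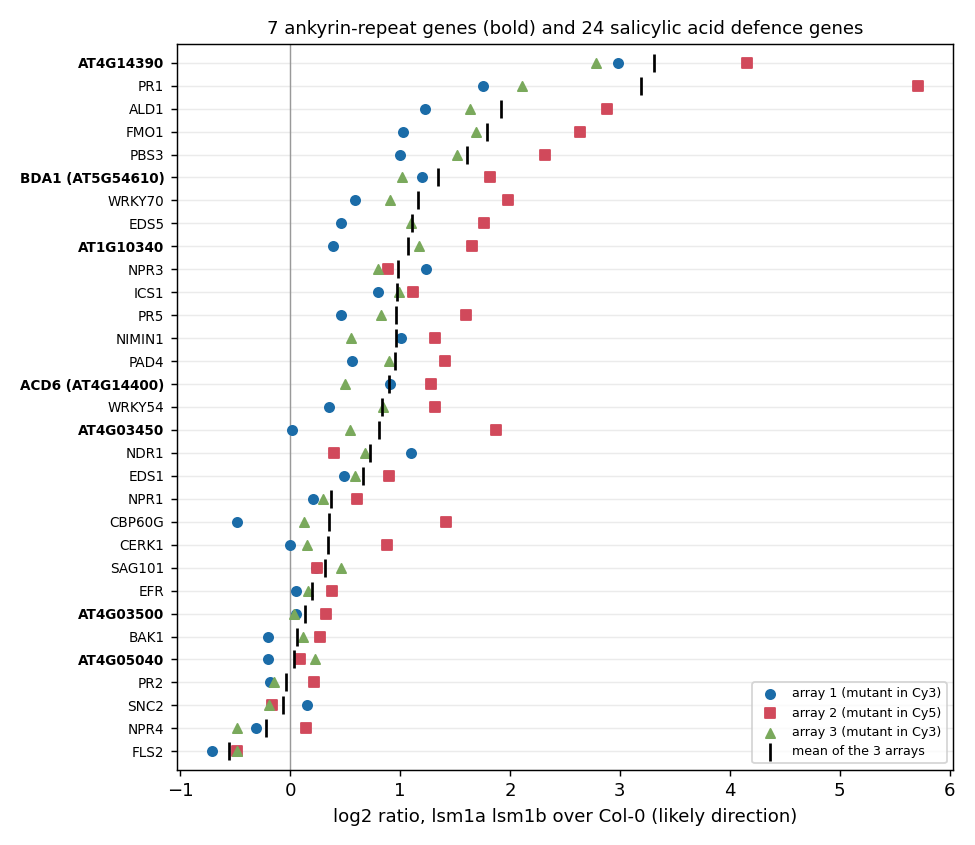
Log2 ratio of lsm1a lsm1b over Col-0 (x axis) for the 7 ankyrin-repeat genes (bold) and the 24 genes of the defence list (rows, ordered by mean), with 1 point per array and a bar at the mean. The list includes the surface receptor and co-receptor genes FLS2, EFR, BAK1 and CERK1. BDA1 and AT1G10340 lie between PBS3 and ICS1, ACD6 and AT4G03450 lie below ICS1 and above NDR1, and array 2 is the rightmost point for 19 of the 24 defence genes. The row labelled SNC2 is RLP12 (AT1G71400). ACD6 is placed by the average of its 2 probes, whose means were 1.30 and 0.49.

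The genes whose 3 ratios were most like those of ACD6 were sought by Euclidean distance over the 3 arrays, leaving out the other 6. The nearest were PP2-B10 (distance 0.096 on the log2 scale), AT5G54930 (0.105), AT4G27740 (0.107), NIMIN1 (0.119) and GSTF7 (0.124). GSTF7 was averaged from 2 probes whose means differed by more than 1. The ACD6 profile itself is an average of 2 probes, which read 2.03 and 0.53 on array 2. Neither probe had the matched value of 1.28, so these genes are near the average and not near either probe there. NIMIN1, the gene for a protein that binds the salicylic acid co-regulator NPR1, stood at 1.01, 1.32 and 0.55, against 0.91, 1.28 and 0.50 for ACD6. For AT4G14390 the nearest were AT5G44570 (0.35), AT1G13470 (0.554), AT5G60260 (0.858), AT1G12080 (0.941) and AT3G47480 (0.985). AT5G44570 stood at 2.70, 3.95 and 2.79, with a step up on array 2 like that of AT4G14390. The nearest to ACD6 among the other 6 ankyrin-repeat genes was BDA1, at a distance of 0.804. With 3 arrays, such likeness describes size and the value on array 2 and no more.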

How the data were processed

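Transcript ratios were measured on 3 two-colour arrays of lsm1a lsm1b against Col-0 rosettes. The authors deposited 1 log2 ratio for each probe and array, and these were used as they stand. Per the submitters' processing notes limma was used. Its version, the background correction, the normalization, the log base and the ratio's direction were not given in the sources used here. Base 2 was taken from the range of the values, -6.76 to 5.87. Column medians were 0, 0.01 and -0.01. The swapped array correlated above 0 with the others (r = 0.416 and 0.411 over probes), and all arrays were therefore taken as turned the same way. No intensities were used, so probes near background went unseen. Precision is limited by the number of arrays.

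Of 43656 rows, 55 control features were left out. Of the other 43601 probes, 34342 had 1 symbol in the platform annotation, 9259 had none and 0 had several; the annotation can be old. The RefSeq table of TAIR10.1 updated the names, by accession for 32243 probes and by symbol for 2035. In 39 cases the 2 disagreed and in 25 neither matched, and these probes were left unnamed. The 34278 named probes gave 24658 genes, with the ratios of a gene's probes averaged per array.

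limma 3.58.1 in R 4.3.3 tested each gene's mean ratio against 0 (intercept only, two-sided, Benjamini-Hochberg over all genes, threshold 0.05), after the script was tested on simulated data. Alternatives were the median of probes, leaving out genes whose probes disagree, centring or scaling each array, a dye term, each array left out and every probe on its own. The genes, lists and tests were chosen with earlier results of these data known. Named genes follow a rule: the 7 genes, called genes and the extremes of each list (6 highest and 4 lowest ankyrin-repeat genes, 6 largest defence genes), direct neighbours and the 5 nearest profiles. The planned comparison of protein sequences was not made.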

Additional observations from a re-analysis of the deposited data

How the results depend on the processing

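The 298 genes past limma's threshold became 76 when each array was scaled to one spread, 38 higher and 38 lower and 72 of them shared, and 0 with a dye term. Without any 1 array the count was 0 (range 0 to 0). The unadjusted p was then under 0.05 for 2805, 7327 and 2544 genes without replicate 1, 2 and 3, and for 6384 with the dye term, against 4946. The defence genes likewise had 0 calls instead of 1 under scaling, the dye term and each left-out array, with 14 to 20 members at an unadjusted p under 0.05. The median of the 7 genes ran from 0.71 without replicate 2 to 1.21 without replicate 1 (0.90 with all arrays). Of 49 values of the 7 genes under alternatives chosen with the tests, 48 lay within 1 SD of the reported value. The other was AT4G05040, at -0.48 by the median of its probes. This count is no sign of stability. With 3 arrays, leaving 1 out or adding a dye term cannot move a mean by 1 SD. AT4G03450 went from 0.81 to 0.28 without replicate 2 and still lay within it. By probes chosen after the data were seen, AT4G05040 stood at 1.91 or -0.59, and ACD6 at 1.30 or 0.49. Among the 79 other genes run (both lists, direct neighbours, XBAT34 and nearest profiles), each called one kept its direction but lost its call in some alternatives. The uncalled ones stayed within 1 SD, a rule that for the same reason says little. CBP60G changed sign within it, from 0.36 to -0.175 without replicate 2. Each array holds both genotypes and gives 1 ratio, so the test of the mean ratio against 0 was already paired within arrays.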
